A study of Saccharomyces cerevisiae and Saccharomyces paradoxus and Saccharomyces mikatae with 10 samples.

Results

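The 10 genes described here encode enzymes, carriers and activators that let yeast live on carbon sources made of 2 carbon atoms. They are grouped here as genes that glucose represses, although not all of them were low in these cultures. They were chosen by systematic name: FBP1 (YLR377C), ICL1 (YER065C), MLS1 (YNL117W), MDH2 (YOL126C), IDP2 (YLR174W), CIT2 (YCR005C), ADY2 (YCR010C), SFC1 (YJR095W), ADR1 (YDR216W) and CAT8 (YMR280C). All 10 had values, out of 4325 genes in the deposited table. The table holds messenger RNA levels of 9 strains from 3 Saccharomyces species. The 6 strains of S. cerevisiae were YPS606 and DBVPG1788 (both wild), the fruit juice strain DBVPG6040, the distillery strain Y9, the wine strain BC187 and the clinical strain YJM145. S. paradoxus was represented by the wild strains N17 and N44, and S. mikatae by the wild strain IFO1815. All were cultured alike, at 30 °C in a medium that mimics oak exudate with 1% sucrose, 0.5% glucose and 0.5% fructose. After 24 hours of preculture they were diluted to an optical density of 0.1 and collected at 0.5, so fermentable sugar had been supplied to every culture. The labels give no mating type, ploidy or engineered allele for any strain.

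Gluconeogenesis builds glucose from small carbon compounds, and the glyoxylate cycle supplies it with malate and succinate made from acetate by skipping the steps of the citric acid cycle that release carbon dioxide. In S. cerevisiae, glucose represses the genes of both routes through the repressor Mig1. When glucose runs out, the kinase Snf1 turns on the activators Cat8, Sip4 and Adr1, and Cat8 and Sip4 bind a short promoter sequence, the carbon source-responsive element. On return to glucose, the GID ubiquitin ligase marks several of the enzymes for degradation by a proline at the start of the protein.

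The study asked whether expression differs among the strains along descent or along environment, so the levels were compared between species and, within S. cerevisiae, between environments. Each strain had 1 value per gene, and the strain served as the replicate of its species. The p-values therefore measure the spread between strains, and no spread within a strain was available. The fits assume the same spread in both groups compared, and this was not tested. Levels are FPKM (fragments divided by the length of the gene and by the sum for the library), a unit inferred from the values. A level is a mean over a culture, so fewer cells with a transcript and less transcript per cell cannot be told apart. In the S. cerevisiae strains the values implied totals of 57.89 M to 153.1 M fragments (M for mega), and the lowest level among the 10 genes, that of SFC1 in YJM145, rested on about 76 fragments (exact Poisson 95% interval 0.938 to 1.49 FPKM, for counting error only). For N17, N44 and IFO1815 the depth is unknown. In S. mikatae, 426 of 4278 genes with a value were listed at 0, against 1 to 5 genes in each other strain. On chromosome III, which holds CIT2 and ADY2, 19 of 95 genes were at 0 in that strain. The share was between 9.80% and 16.2% on the chromosomes of ICL1, FBP1, IDP2, SFC1 and ADR1. It was at most 0.287% on those of MLS1, MDH2 and CAT8.

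The sequences below show the stretches upstream of 6 of the genes that hold the carbon source-responsive element, since Cat8 and Sip4 act through it. The letters searched were CCNNTNNNCCG, on both strands, within 600 bases before the start codon in the R64 reference assembly (RefSeq). Each sequence is written 5′ to 3′ in the direction of its gene, with the matches in capitals, and a match on the opposite strand appears as its reverse complement.
ICL1, chrV:287290-287324, minus strand: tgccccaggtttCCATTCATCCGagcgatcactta
MLS1, chrXIV:405815-405922, plus strand: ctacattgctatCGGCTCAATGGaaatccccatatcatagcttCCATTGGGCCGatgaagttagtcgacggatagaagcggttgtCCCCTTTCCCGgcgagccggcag
MDH2, chrXV:83275-83365, minus strand: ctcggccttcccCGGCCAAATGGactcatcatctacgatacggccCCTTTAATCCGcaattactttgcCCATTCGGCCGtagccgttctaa
IDP2, chrXII:504276-504310, plus strand: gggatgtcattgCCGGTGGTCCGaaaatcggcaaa
ADY2, chrIII:133581-133647, minus strand: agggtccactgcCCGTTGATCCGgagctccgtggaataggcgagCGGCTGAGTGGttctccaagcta
SFC1, chrX:609181-609304, plus strand: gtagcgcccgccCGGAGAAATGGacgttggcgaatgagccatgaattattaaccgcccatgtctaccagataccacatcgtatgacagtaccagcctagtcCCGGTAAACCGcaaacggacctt

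Matches to this element lay upstream of 6 of the 10 genes, against 8.50% of the 4284 genes with such a window. MLS1 and MDH2 had 3 matches each, ADY2 and SFC1 had 2 each, and ICL1 and IDP2 had 1 each. All lay between positions −580 and −293, counted from the first base of the start codon as 0, so a narrower window from 250 bases before to 50 bases after it held none, against 3.20% of genes. No match was found for FBP1, CIT2, ADR1 or CAT8. That says only that these letters are not in this window.

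The core letters of the Mig1 site, CCCCAC or CCCCGC, were found upstream of FBP1, IDP2, ADY2 and CAT8, or 4 of the 10 genes, against 15.8% of all genes. The stretches nearest to the start codon, in FBP1, IDP2 and CAT8, are printed because they place a repressor's letters in front of both an enzyme and an activator, with the core letters in capitals.
FBP1, chrXII:874973-875002, minus strand: ttgtggcatcttCCCCACactatattataa
IDP2, chrXII:504373-504402, plus strand: gggctaggaataGTGGGGgtggagtataat
CAT8, chrXIII:831527-831572, minus strand: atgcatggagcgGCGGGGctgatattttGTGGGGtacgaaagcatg

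In the narrower window, from 250 bases before to 50 after the start codon, these 3 genes had the Mig1 letters, against 6.61% of genes. The core letters of the Adr1 site, TTGGAG or TTGGGG, occurred upstream of 3 of the 10 genes, MDH2, CIT2 and ADY2, against 31.9% of all genes. ADY2 alone had 4 such matches and all 3 kinds of letters. No match to 1 of the 3 kinds overlapped a match to another. These matches describe the S. cerevisiae reference strain, not the strains sequenced here or the other species. The windows, the lists and the genes were all chosen with results of these data known, and no test was made.

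**Figure D1:**
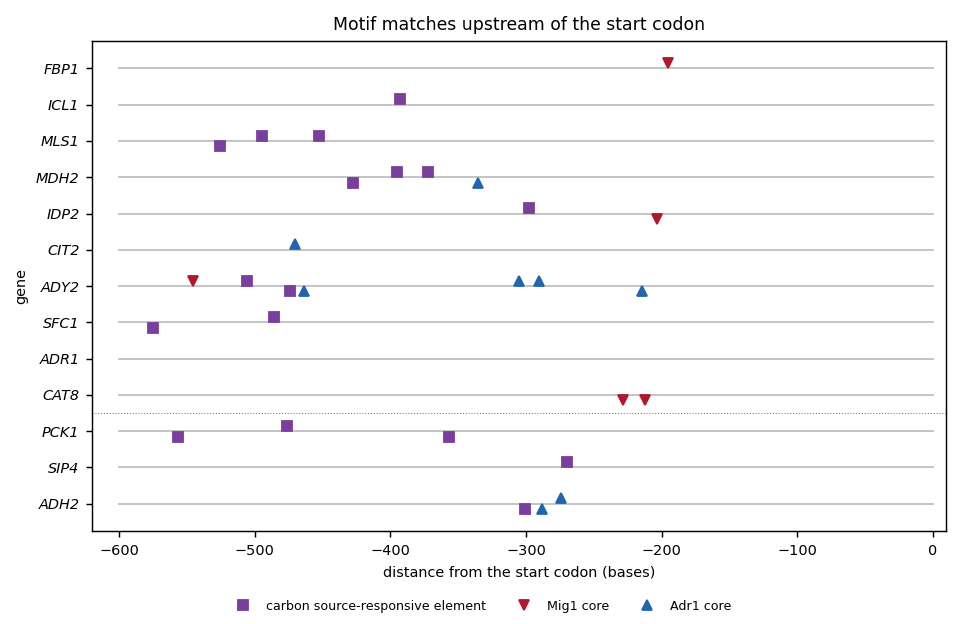
Matches to the 3 motifs within 600 bases before the start codon (horizontal axis, in bases from the first base of the start codon) for the 10 genes and, below the dotted line, PCK1, SIP4 and ADH2. Symbols above a line are on the gene's own strand and those below on the opposite one. The squares of the carbon source-responsive element lie between −580 and −293 in the 6 of the 10 genes that have it. PCK1, SIP4 and ADH2 have squares too, that of SIP4 at −275 to −265. The Mig1 letters of FBP1, IDP2 and CAT8 lie closer to the start than the squares of the 6 genes.

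The starts of 3 reading frames are printed next, because a proline as the second residue is the known signal by which the GID ligase recognises Fbp1, Icl1 and Mdh2. The second codon is in capitals.
FBP1, chrXII:874763-874792, minus strand: atgCCAactctagtaaatggaccaagaaga
ICL1, chrV:286885-286914, minus strand: atgCCTatccccgttggaaatacgaagaac
MDH2, chrXV:82891-82920, minus strand: atgCCTcactcagttacaccatccatagaa

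Of the 10 genes, these 3 had a proline codon in second place, against 4.65% of 4283 reading frames that begin with ATG. Transcript levels do not show how much of each protein was present.

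Among the enzymes, FBP1 was low and nearly even in S. cerevisiae and higher in each strain of the other species. FBP1 (chrXII:873746-874792) encodes fructose-1,6-bisphosphatase, a control point of gluconeogenesis. In S. cerevisiae its level ran from 4.56 FPKM in YPS606 through a median of 5.06 to 6.21 in DBVPG1788, with a mean of 5.26 ± 0.604 (SD, n = 6). It was 22.1 in N17, 11.1 in N44 and 8.44 in IFO1815. The groups did not overlap, and N17 stood above N44 by 0.94 on the log2(FPKM + 1) scale. Within S. cerevisiae the highest strain was 1.36 times the lowest, the narrowest range of the 10 genes, and FBP1 ranked between the 5.25th and 6.34th percentile of all genes.

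The glyoxylate enzymes ICL1 and MLS1 were also low in S. cerevisiae, and the species overlapped in both. ICL1 (chrV:285241-286914) encodes isocitrate lyase, which splits isocitrate into succinate and glyoxylate. Its S. cerevisiae levels ran from 10.4 FPKM in YPS606 through a median of 15.0 to 18.3 in YJM145 (mean 14.6 ± 3.59, SD, n = 6). N17 had 14.1, inside that range, while N44 had 34.4 and IFO1815 49.5. ICL1 was the one gene of the 10 at which IFO1815 was the highest strain and the one at which N17 was lower than N44.

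MLS1 (chrXIV:406358-408022) encodes malate synthase, which joins glyoxylate with acetyl-CoA. It ran from 2.36 FPKM in YJM145 through a median of 4.10 to 5.76 in Y9 (mean 4.09 ± 1.20, SD, n = 6). The levels in N17, N44 and IFO1815 were 7.33, 5.73 and 6.45. Only Y9 among the S. cerevisiae strains reached the lowest of these.

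MDH2 and CIT2 were the highest of the 10 genes in every strain except IFO1815, where ICL1 was higher. MDH2 (chrXV:81787-82920) encodes the cytosolic malate dehydrogenase, which makes oxaloacetate for gluconeogenesis. Its level ran from 59.2 FPKM in DBVPG1788 through a median of 79.7 to 152 in YPS606 (mean 90.1 ± 34.5, SD, n = 6), or the 65.9th to 87.5th percentile of all genes. N17, with 93.7, lay inside the S. cerevisiae range, N44, with 57.3, just below it, and IFO1815 was lowest with 33.2.

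CIT2 (chrIII:120946-122328) encodes the peroxisomal citrate synthase and is a known target of retrograde signalling, by which mitochondria report their state to the nucleus. Its S. cerevisiae levels ran from 33.3 FPKM in DBVPG1788 through a median of 64.5 to 83.8 in Y9 (mean 60.4 ± 20.7, SD, n = 6). N17 stood alone with 164, while N44 had 63.96 and IFO1815 37.2, both within the S. cerevisiae range. DBVPG1788 and DBVPG6040, with 33.3 and 38.2, lay apart from the other S. cerevisiae strains, which had 60.7 to 83.8.

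IDP2 (chrXII:504591-505829) encodes the cytosolic isocitrate dehydrogenase that makes NADPH. DBVPG1788 and BC187 had 14.7 FPKM each, and the other 4 S. cerevisiae strains had 6.82 to 8.37 (mean of all 9.97 ± 3.70, SD, n = 6). N17 had 36.1, N44 had 14.1 and IFO1815 had 7.42. The levels thus formed a high N17, an intermediate set of DBVPG1788, BC187 and N44, and the rest.

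The carriers had the lowest S. cerevisiae means of the 10 genes. ADY2 (chrIII:132273-133124), an acetate transporter of the plasma membrane, ran from 2.51 FPKM in YJM145 through a median of 3.38 to 4.48 in DBVPG6040 (mean 3.48 ± 0.713, SD, n = 6). N17 had 3.12 and N44 2.38, close to the S. cerevisiae strains. In IFO1815 it was listed at 0, and 19 of the 95 genes on its chromosome were at 0 in that strain. Whether this 0 is a failed estimate or an absent transcript was not tested.

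SFC1 (chrX:609773-610741) encodes the mitochondrial carrier that exchanges succinate for fumarate and so links the glyoxylate cycle to the mitochondrion. It ran from 1.19 FPKM in YJM145 through a median of 2.98 to 3.80 in DBVPG1788 (mean 2.65 ± 1.10, SD, n = 6). N17 had 17.1, above every other strain, while N44 had 2.68 and IFO1815 1.69.

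The activators varied in different ways. ADR1 (chrIV:895035-899006), a zinc finger activator of genes for ethanol and fatty acid use, had the widest S. cerevisiae range, 4.54 times from lowest to highest. It was 34.5 FPKM in Y9 and between 7.59 and 14.8 in the other 5 strains (median of all 10.1, mean 14.2 ± 10.3, SD, n = 6). N17 had 27.0, N44 had 5.82 and IFO1815 had 4.46, so Y9 and N17 were the high strains.

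CAT8 (chrXIII:827028-831329), the zinc cluster activator that binds the carbon source-responsive element, was even in S. cerevisiae. It ran from 3.89 FPKM in YPS606 through a median of 4.797 to 6.05 in DBVPG6040 (mean 4.90 ± 0.941, SD, n = 6). N17 had 10.9, N44 had 4.20 and IFO1815 had 2.13, so N17 was high and IFO1815 low. In Y9, the strain with the highest ADR1, CAT8 was 5.95, next to the highest S. cerevisiae level.

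**Figure D2:**
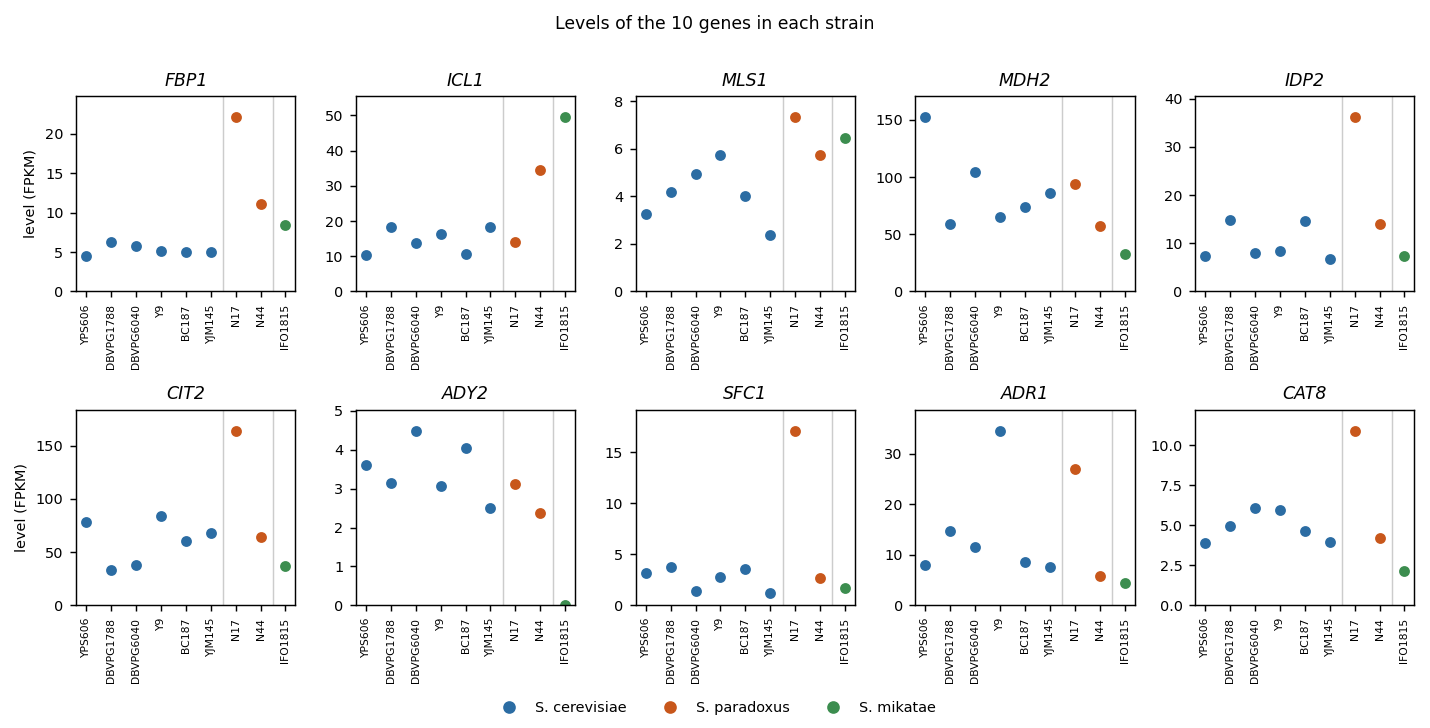
Level of each of the 10 genes in each strain (vertical axes in FPKM, starting at 0, with a scale of their own in each panel; 1 point per strain). N17 is the highest point in the panels of FBP1, MLS1, IDP2, CIT2, SFC1 and CAT8, and the 6 S. cerevisiae points of FBP1 lie between 4.56 and 6.21.

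The strains of S. paradoxus stood apart from each other. N17 was the highest of the 9 strains for 6 genes, FBP1, MLS1, IDP2, CIT2, SFC1 and CAT8, and N44 for none. IFO1815 was the lowest for 4 genes (MDH2, ADR1, CAT8 and ADY2, the last listed at 0). YJM145 was the lowest for 3 (MLS1, IDP2 and SFC1), YPS606 for 2 (FBP1 and ICL1) and DBVPG1788 for 1 (CIT2). How often each strain was highest or lowest among all genes was not worked out. These counts therefore cannot be read as particular to the 10 genes. The values of IFO1815 also had a lower sum over all genes, 356258, against 451957 to 522913 in the other strains. Relative to the median S. cerevisiae strain, the median of the 10 genes in N17 was 1.18 higher on the log2(FPKM + 1) scale, and that of all genes 0.34 higher. In N44 the same medians were −0.06 for the 10 genes and 0.31 for all genes. In IFO1815 they were −0.67 and −0.13. The S. cerevisiae strains ran from −0.23 in YJM145 to 0.17 in DBVPG6040 for the 10 genes.

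Set side by side, the S. paradoxus strains differed by at least 1 on the log2(FPKM + 1) scale in 6 of the 10 genes. SFC1 was higher in N17 by 2.30, ADR1 by 2.04 (27.0 against 5.82 FPKM), CIT2 by 1.34, IDP2 by 1.30 and CAT8 by 1.19. ICL1 was lower in N17 by the value of −1.23. Among all 4297 genes, 7.89% were higher in N17 by this much and 3.03% lower, and the median difference was 0.03 against 1.06 for the 10 genes. With 1 value per strain there was no replicate check and no test.

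**Figure D3:**
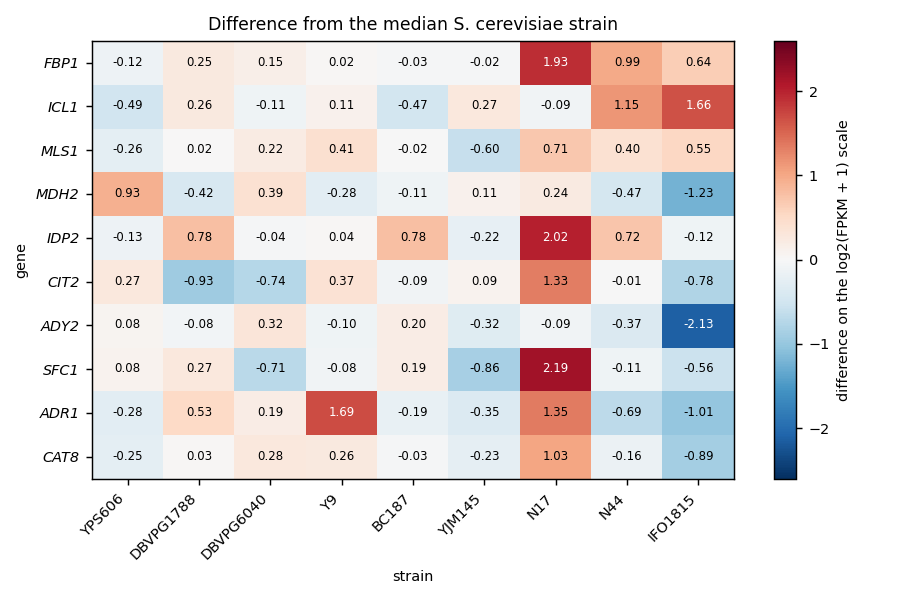
Difference of each strain from the median S. cerevisiae strain for the 10 genes (numbers and colours on the log2(FPKM + 1) scale, red higher and blue lower). The column of N17 is red for 8 of 10 genes, where 71.1% of all genes were above 0 in that strain. The column of N44 has 4 genes above 0, against 69.5% of all genes, and that of IFO1815 has 3, against 42.6%.

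Between the species, FBP1 and IDP2 were lower in S. cerevisiae than in S. paradoxus. Every strain of the other species is wild, against 2 of the 6 S. cerevisiae strains. Species and environment are therefore not fully separated in the species comparisons. FBP1 had means of 5.26 ± 0.604 and 16.6 ± 7.79 FPKM (SD, n = 6 and n = 2), a difference of −1.42 on the log2(FPKM + 1) scale (SE 0.25, limma across all genes, Benjamini-Hochberg adjusted p = 0.00492). This scale understates the change of low genes. IDP2 had means of 9.97 ± 3.70 and 25.1 ± 15.6 FPKM (SD, n = 6 and n = 2) and a difference of −1.17 (SE 0.38, limma adjusted p = 0.0471). The 2 genes called lower out of 10 stand against a background of 21.5% of the 4282 genes tested, so this share is near that of any genes. None of the 10 was called higher, against 2.45% of genes. Groups did not overlap for 1 of the 10, FBP1, against 35.8% of genes.

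The other 8 genes did not pass. Their log2 differences, with limma adjusted p, were −1.22 for SFC1 (0.119), −0.83 for CIT2 (0.170), −0.60 for ICL1 (0.208), −0.59 for MLS1 (0.150) and −0.43 for CAT8 (0.335). ADR1 had −0.068 (0.942), MDH2 0.22 (0.681) and ADY2 0.25 (0.498). The median over the 10 genes was −0.60, against −0.31 over all genes tested. This shift of all genes to lower values in S. cerevisiae depended on scaling: after the strains' medians were set equal, the median over all genes was 0.02 and that of the 10 genes −0.27. FBP1 then had −1.09 (limma adjusted p = 0.0124) and IDP2 −0.84 (0.139), while ADR1 changed sign to 0.26. Of the 1025 genes called as deposited, 105 were higher and 920 lower in S. cerevisiae, with equal medians the split was 304 higher and 338 lower, and with quantile normalisation 317 higher and 335 lower.

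Single strains decided these calls. Without N17, the difference of FBP1 was −0.95 and that of IDP2 −0.52, and both lost their calls. Without N44, the difference of SFC1 was −2.37 and that of CAT8 −1.02. IDP2 also missed the threshold when YPS606, DBVPG6040, YJM145 or Y9 was left out, with limma adjusted p of 0.0655 to 0.0807. In these fits the lone S. paradoxus strain is assumed to vary as the S. cerevisiae strains do.

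With S. mikatae added to the other side, FBP1 alone was called. The difference between the 6 S. cerevisiae strains and the 3 others was −1.14 (SE 0.29, limma adjusted p = 0.0481), against 4.81% of 4239 genes called lower and 1.44% called higher. Of all genes called there, 61 were higher and 204 lower in S. cerevisiae, or 124 and 180 with equal medians. The groups did not overlap for FBP1 alone, against 15.0% of genes. FBP1 missed the threshold when any strain but IFO1815 was left out, with limma adjusted p of 0.0586 to 0.115. ICL1, at −0.98 (0.137), passed only without N17 (−1.47, 0.0388). The median over the 10 genes was −0.47, against −0.10 over all genes, and 0.19 without N17.

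None of the 10 genes passed the test between wild and non-wild strains of S. cerevisiae. This comparison sets YPS606 and DBVPG1788 against DBVPG6040, Y9, BC187 and YJM145, and holds the species constant. The widest difference was that of SFC1, with means of 3.50 ± 0.416 and 2.22 ± 1.10 FPKM (SD, n = 2 and n = 4), or 0.54 on the log2 scale (SE 0.37, limma adjusted p = 1.00). None of the 10 had an unadjusted p under 0.05. Among all 4267 genes, limma called 0 (0%), and 56 had an unadjusted p under 0.05. The pair of wild strains lay on opposite sides of the S. cerevisiae range for MDH2, with 152 and 59.2 FPKM, and for CIT2, with 78.1 and 33.3.

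Other enzymes that use acetate, ethanol, lactate or glycerol showed both directions. PCK1, the other control enzyme of gluconeogenesis, which makes phosphoenolpyruvate, was lower in S. cerevisiae, with 2.99 ± 1.11 against 22.6 ± 3.32 FPKM (SD, n = 6 and n = 2) and a log2 difference of −2.62 (limma adjusted p = 0.0012). N17 and N44 had 24.9 and 20.2, and IFO1815 10.5, above the S. cerevisiae range of 0.929 to 4.16. ADH2, the alcohol dehydrogenase that turns ethanol into acetaldehyde, went the other way, with 515 to 1901 FPKM in S. cerevisiae, 21.9 in N17, 17.7 in N44 and 10.4 in IFO1815. Its log2 difference was 5.81 (limma adjusted p = 3.93e-05). In S. cerevisiae ADH2 ranked between the 96.9th and 99.4th percentile of all genes. Its sequence was not compared with those of other alcohol dehydrogenase genes, and how reads matching several genes were divided is not given. Whether such reads add to the ADH2 levels was not tested. GUT1, glycerol kinase, was likewise higher in S. cerevisiae, with 31.4 ± 8.20 against 7.78 ± 1.21 (1.86, limma adjusted p = 0.00125). PCK1, ADH2, GUT1 and SIP4 kept their calls in each alternative setting in which they were tested and when each strain was left out. Of the 20 genes on this list, 13 were tested, of which 2 were called higher and 1 lower, against 2.45% and 21.5% of all genes. The median of the 13 was −0.21, against −0.31 over all genes. CAT2 and CRC1, both of the carnitine shuttle for acetyl groups, had log2 differences of −0.97 and −0.99 and did not pass.

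Among 23 regulators of glucose repression tested, 2 were called higher and 2 lower in S. cerevisiae than in S. paradoxus, against 2.45% and 21.5% of all genes. Their median log2 difference was −0.17, against −0.31 over all genes. SIP4, the partner of CAT8 at the carbon source-responsive element, was lower, with 2.53 ± 1.23 against 18.5 ± 11.3 FPKM (−2.40, limma adjusted p = 0.00441). Its levels were 10.4 in N17, 26.5 in N44 and 5.29 in IFO1815, so that SIP4 was higher in N44 than in N17, as ICL1 was. NRG1, a glucose repressor, was lower too (−0.94, limma adjusted p = 0.0282), a call lost with equal medians (−0.61, 0.123), with quantile normalisation (−0.69, 0.0936), and without BC187 (0.0539) or N44 (0.206). HXK2, the hexokinase that is needed for glucose repression, was higher, with 965 ± 217 against 365 ± 158 FPKM (1.44, limma adjusted p = 0.0122), a call lost without N17 (0.98, 0.111). SIP1, a subunit of the Snf1 kinase, was higher by 0.64 (0.0423), a call lost with all 9 strains in the fit (0.0652) and on leaving out YPS606, DBVPG1788, Y9, BC187, YJM145 or N17. MIG2 and MIG3, relatives of Mig1, had log2 differences of 0.97 and −1.08 and did not pass.

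The GID ligase, which removes Fbp1, Icl1 and Mdh2 protein, had 9 of 10 listed genes tested. GID9 was called lower in S. cerevisiae (−0.66, limma adjusted p = 0.0451), the 1 call among the 9, against 21.5% of all genes. That call was lost with equal medians (−0.33, 0.295), quantile normalisation (−0.25, 0.427), eBayes without a trend (0.0505) and all 9 strains in the fit (0.0520). It was also lost without YPS606, DBVPG1788, BC187, YJM145, N17 or N44. GID7 and GID11 had log2 differences of 0.53 and −0.54 and did not pass, and the median of the 9 was −0.20. None of the 5 genes of retrograde signalling that were tested was called by limma, against 21.5% of all genes called lower and 2.45% called higher. Of the 5, 0 had an unadjusted p under 0.05, against 1631 of 4282 genes. With 5 genes these counts say little about the route. RTG2, the sensor of retrograde signalling, had a log2 difference of 0.31. IDH1, a subunit of the mitochondrial isocitrate dehydrogenase and a target of the route, had 0.39. The median of the 5 was −0.048.

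**Figure D4:**
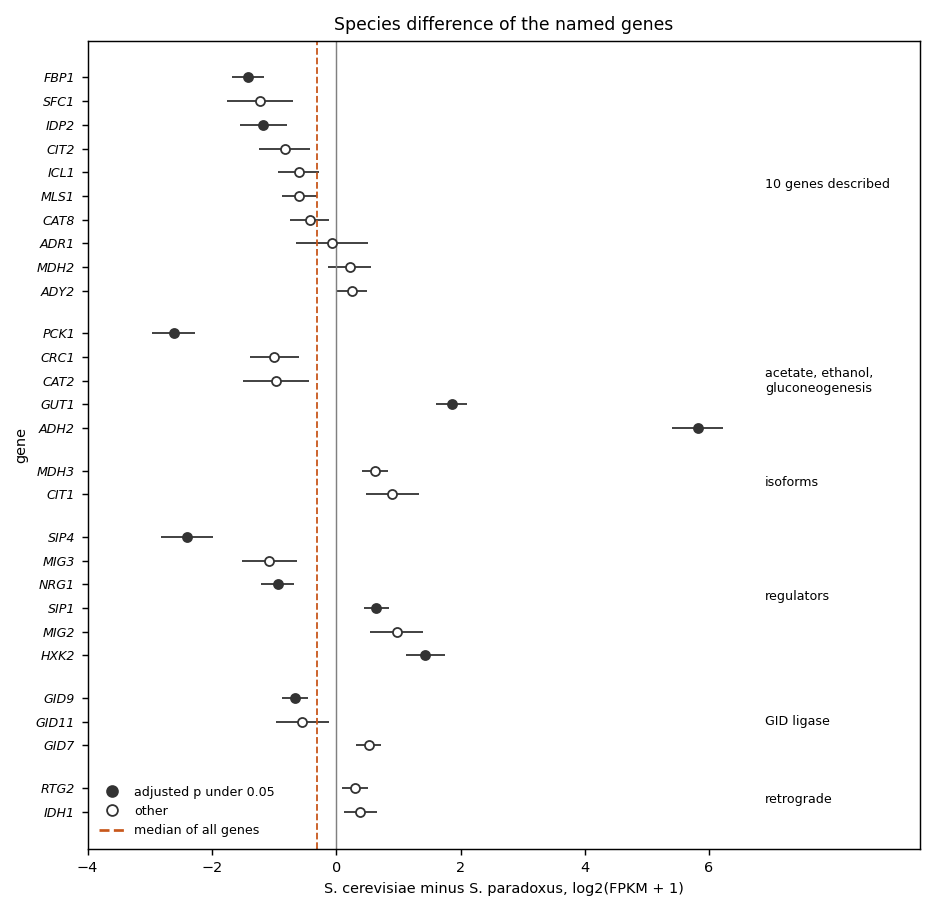
Difference between S. cerevisiae and S. paradoxus on the log2(FPKM + 1) scale (horizontal axis, negative where S. cerevisiae is lower) for the 10 genes and named genes of the 5 lists, with bars of 1 SE. Filled points have a limma adjusted p under 0.05, and the dashed line is the median of all genes, −0.31. PCK1 and SIP4 lie left of FBP1, and ADH2 stands far to the right at 5.81.

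For 3 of the enzymes, a partner gene encodes an enzyme that runs the same reaction in the mitochondrion, which allows a ratio within each strain. CIT2 over CIT1 was between 0.204 and 0.295 in the 6 S. cerevisiae strains, and was 0.683 in N17, 1.02 in N44 and 0.444 in IFO1815. The groups did not overlap, as was so for 15.0% of single genes between these strains. No such share was worked out for ratios. Groups without overlap always reach the lowest p of the permutation tests used here. In N17 the ratio was high with CIT2 at 164 FPKM and CIT1 at 240, whereas in N44 CIT2 was 63.96 and CIT1 only 62.5. The log2 ratio was lower in S. cerevisiae than in S. paradoxus by the value of −1.75 (two-sided exact permutation p = 0.0714, which is the lowest possible with 28 arrangements, and 0.107 adjusted over 3 ratios). With IFO1815 included the value was −1.45 (two-sided exact permutation p = 0.0238, the lowest possible with 84 arrangements, and 0.0714 adjusted). CIT1 itself had a log2 difference of 0.90 and did not pass.

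IDP2 over IDP1 was between 0.0318 and 0.0727 in S. cerevisiae, and 0.187, 0.0923 and 0.0569 in N17, N44 and IFO1815. The S. paradoxus strains were above all 6 S. cerevisiae strains, where 35.8% of single genes did not overlap between these species. The difference in log2 ratio was −1.50 (two-sided exact permutation p = 0.0714, again the lowest possible, adjusted 0.107). MDH2 over MDH1 was between 0.128 and 0.314 in S. cerevisiae, 0.180 in N17, 0.220 in N44 and 0.111 in IFO1815. Its difference was −0.038 (two-sided exact permutation p = 0.929). The coding sequences of these pairs share 73.7% (CIT2 and CIT1), 70.2% (IDP2 and IDP1) and 66.4% (MDH2 and MDH1) of aligned bases in the reference, with no identical run longer than 23 bases. How reads that could match either copy were divided is not given in the sources used here. MDH3, the peroxisomal malate dehydrogenase, had a log2 difference of 0.63 between S. cerevisiae and S. paradoxus and did not pass.

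**Figure D5:**
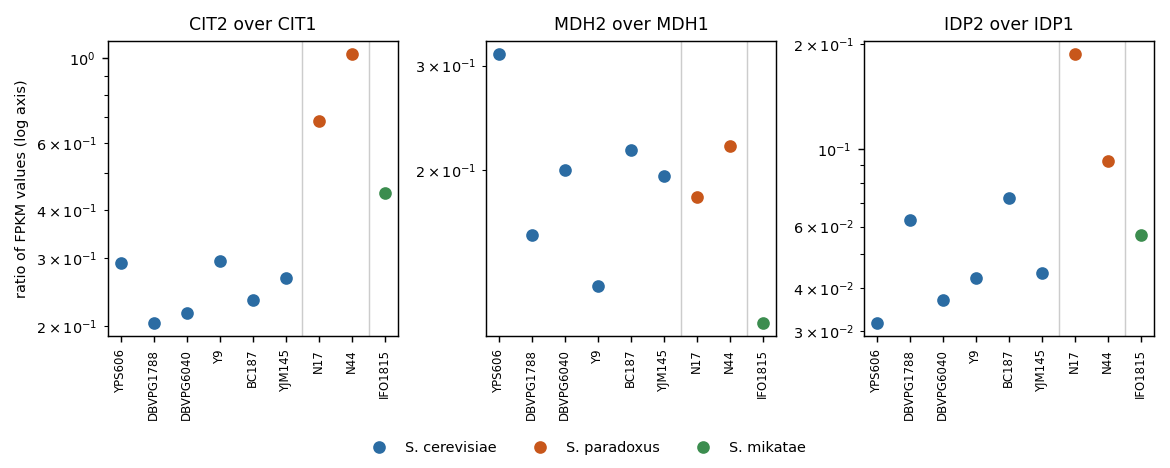
Ratio of each cytosolic or peroxisomal enzyme to its mitochondrial partner in each strain (vertical log axes, ratio of FPKM values; 1 point per strain). For CIT2 over CIT1 the S. cerevisiae points lie between 0.204 and 0.295 and N44 at 1.02, whereas for MDH2 over MDH1 both S. paradoxus points lie within the S. cerevisiae range of 0.128 to 0.314.

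The 10 genes did not move as a block among the S. cerevisiae strains. Over the 6 strains, 24 of the 45 pairs of genes had a positive Spearman correlation and 21 a negative one, with a median of 0.0857 and a range of −0.771 to 0.943. These are descriptions over 6 strains that share each strain's library. The genes outside the list whose pattern was closest to the mean of the 10, by Pearson correlation over the 6 strains among 3772 genes, were BAT2 (0.992), DBF2 (0.985), GSF2 (0.963), LUG1 (0.962), ASI3 (0.962), YGR266W (0.960), CAB1 (0.959) and ANY1 (0.949). They are the 8 highest values by choice, and no test was made.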

How the data were processed

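Libraries were made from 200 ng of polyadenylated RNA with random hexamers, size selection near 250 bp and 15 PCR cycles, per the labels' protocols. The submitters' processing notes name cutadapt, TopHat, Cufflinks and the R64 build, without roles or versions. How reads of S. paradoxus and S. mikatae were assigned, whether strand was used, and how multiply matching reads were divided are not given in the sources used here. The deposited values are treated as FPKM normalised by the authors. The unit is inferred: low values of the S. cerevisiae strains, multiplied by R64 gene length, were whole multiples of 1 step within 0.05 for 93.1% to 96.43% of low values. YPS606 had 2 libraries, joined by the authors into 1 column, so 10 libraries gave 9 columns. No batch or date is labelled.

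Of 4325 genes, 4284 matched an R64 locus tag. Symbols, coordinates and sequences are from RefSeq R64, read with Biopython 1.88. Protein sequences are not used here. Levels were fitted as log2(FPKM + 1) with limma 3.58.1 in R 4.3.3 (lmFit, eBayes with a trend, two-sided), for genes with a mean of at least 1 in the strains compared, with Benjamini-Hochberg adjustment over all genes and a threshold of 0.05. Strains were grouped by the species and environment in their labels. Motifs were searched in a window from 250 bases before to 50 after the start codon, and in 600 bases before it. The fit was tested on simulated data first. There both groups were given the same spread, so the test does not show how the fit behaves where spreads differ. The ratios of isoforms were compared with exact permutation tests (scipy 1.17.1). The 10 genes and the 5 lists were chosen with earlier results of these data known. The named genes are the 10, each listed gene called in a comparison, and the 2 others of each list with the largest difference between S. cerevisiae and S. paradoxus. A listed gene among them is not reported here. Added after the data were seen were the isoform ratios, the set of N17 beside N44, the 600-base window and the alternatives for listed genes. Alternatives covered the pseudocount (0.1), the filter (none, a mean of at least 10, no value at 0), quantile normalisation, median centring, the prior, all 9 strains in the fit and each strain left out.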

Additional observations from a re-analysis of the deposited data

Results flagged for a closer look

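Among the 6 S. cerevisiae strains, 32 sets of values were examined for a strain far from the rest, and 3 had one. Chance gives about 1 in 20 only if the values are normally spread. The values examined were not on the log2 scale used in the fits, on which high values lie closer to the rest. No excess over chance can therefore be read from this count. ADR1 was 34.5 FPKM in Y9 and 7.59 to 14.8 in the other 5 strains. CAT2, which encodes carnitine acetyltransferase, was also high in Y9, with 19.4 FPKM against 3.85 to 8.30 in the others. SIP1 was 35.9 FPKM in DBVPG1788 and 26.2 to 29.5 in the others. The cause of these values was not tested.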

How the results depend on the processing

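For the log2 differences of the 10 genes in the 3 comparisons, there were 443 combinations with an alternative, of which 384 kept their direction and side of the threshold, 19 lost a call, 5 gained one and 35 changed sign. FBP1 against S. paradoxus was called in every alternative in which it was tested except without N17. IDP2 lost its call with a mean of at least 10 (limma adjusted p = 0.0536), quantile normalisation (0.227), median centring (0.139) and all 9 strains in the fit (0.0633). Against S. paradoxus, the number of the 10 genes called was 0 with a mean of at least 10, which leaves FBP1 out, and 1 with median centring or with all 9 strains. The genes called numbered 652 with quantile normalisation and 642 with median centring, and the median of the 10 genes was −0.027 and −0.27. Quantile normalisation turned MLS1 to 0.057, ADR1 to 0.39 and CAT8 to 0.12, and median centring turned ADR1 to 0.26. ADY2 was called under quantile normalisation (1.04, limma adjusted p = 0.0127). With the 3 strains of both other species, none (0) of the 10 was called with a pseudocount of 0.1 or a mean of at least 10, and quantile normalisation turned CAT8 to −0.25. Quantile normalisation split the calls of that comparison into 157 higher and 235 lower. Between wild and non-wild strains, quantile normalisation turned ICL1 to 0.030 and ADY2 to 0.046, and median centring turned ADY2 to 0.028. The causes were not tested.

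Leaving out each strain in turn gave 410 to 1185 genes called against S. paradoxus, 0 to 4 of the 10 genes, and a median of −1.05 to −0.12. With S. mikatae added the ranges were 109 to 1025 genes, 0 to 2 of the 10, and −0.60 to 0.19. Between wild and non-wild strains they were 0 to 1 gene (1 without DBVPG1788), 0 of the 10, and −0.21 to 0.10. For the genes whose sign then changed, the log2 differences against S. paradoxus ranged as follows, none passing except CAT8 without N44: ICL1 −1.22 to 0.014, MDH2 −0.13 to 0.57, ADR1 −1.09 to 0.95, CAT8 −1.02 to 0.17. With S. mikatae added they were CIT2 −0.83 to 0.22, SFC1 −1.22 to 0.15, ADR1 −0.068 to 1.11, CAT8 −0.43 to 0.53. Between wild and non-wild strains, where none passed, they were FBP1 −0.16 to 0.22, ICL1 −0.44 to 0.31, MLS1 −0.32 to 0.017, MDH2 −0.45 to 0.90, IDP2 −0.27 to 0.64, CIT2 −0.84 to 0.37, ADY2 −0.14 to 0.072, ADR1 −0.62 to 0.24. The log2 ratio of CIT2 over CIT1 ran from −2.04 to −1.46, that of IDP2 over IDP1 from −2.01 to −0.99 and that of MDH2 over MDH1 from −0.18 to 0.11. No paired analysis was possible because each strain is 1 column and the strains share no replicate number.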
